A study of Drosophila melanogaster with 4 samples.

Results

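Myc peaks on the X chromosome of Drosophila melanogaster are the regions of X that a peak caller scored as enriched in chromatin precipitated with an antibody against Myc. They were taken as every region listed on the sequence X of FlyBase Release 5, which gave 1460 of the 8614 peaks of the whole list. The separate heterochromatin scaffold XHet, with 3 peaks, was kept apart. Peaks on the autosome arms 2L (1460), 3L (1556) and 3R (1815) served as the background. The autosome arm 2R was not part of it and enters only an alternative density ratio given further below. X and 2L have the same number of peaks, and the reason was not tested.

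The study used 2 ChIP libraries, precipitated with the rabbit polyclonal antibody MycN raised against residues 46 to 507 of the fly protein, and 2 input libraries, made from chromatin before precipitation. All 4 came from wandering L3 larvae, the last larval stage, of the strain Y cn bw sp, grown at 25 C and fixed for 15 min in 1.8% formaldehyde. ChIP and input larvae carried the same genotype: y[1] with oc[R3.2] on X, the markers cn[1], bw[1] and sp[1] together with Gr22b[1], Gr22d[1] and CG33964[R4.2] on 1 large autosome, and the alleles Rh6[1], GstD5[1], MstProx[1] and LysC[1] as well as lab[R4.2] on the other large autosome. The labels give the sex as unknown, so the number of X copies per cell behind these peaks is unknown. Whole larvae mix many tissues, and a peak seen in a few tissues cannot be told apart from a weak one seen in all of them.

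Myc is a basic helix-loop-helix protein that binds DNA together with its partner Max, often near the start sites of genes for ribosome production and growth. Drosophila has a single Myc gene, first named diminutive for the small flies its mutants give. That gene itself lies on X. Male flies carry X without a partner copy and raise its transcription through the dosage compensation complex, whereas females do not.

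On X as a whole, the peaks covered 1.47 Mb, or 6.57% of the 22.4 Mb between the first base and the end of the last peak. The density was 65.1 peaks per Mb on X, against 63.6 on 2L, 63.4 on 3L and 65.1 on 3R. The covered share was 6.41% on 2L, 5.80% on 3L and 6.20% on 3R. A peak on X had a median width of 775 bp, and the middle part of the widths, between the quartiles, spanned 457 to 1231 bp. The median was 732 bp on 2L, 732.5 bp on 3L and 759 bp on 3R. The score, the peak caller's own value on a scale that no header names, had a median of 65.12 on X and ran from 6.74 to 963.90. The median score was 60.46 on 2L, 59.53 on 3L and 66.09 on 3R. The list has 1 value per region and none per library, so neither the depth behind a peak nor a spread between ChIP libraries is known. Every difference between X and the autosome arms below is therefore a description of 1 list and was not tested. Positions are given on Release 5 and were not set against genes here.

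From the tip to 20 Mb, Myc peaks followed one another at a nearly level density, and beyond 20 Mb they thinned out. The 5 Mb segments held 351, 344, 340 and 347 peaks from the tip on, or 70.2, 68.8, 68.0 and 69.4 per Mb. From 20 Mb to the base, 78 peaks gave 32.3 per Mb. The covered share was 3.14% there, against 6.55% to 7.58% in the 4 segments nearer the tip. The peaks beyond 20 Mb had a median score of 71.23, within the range of 50.11 to 77.67 of the other segments. Their median width was 781.5 bp, against 720 to 859 bp in those segments.

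**Figure D1:**
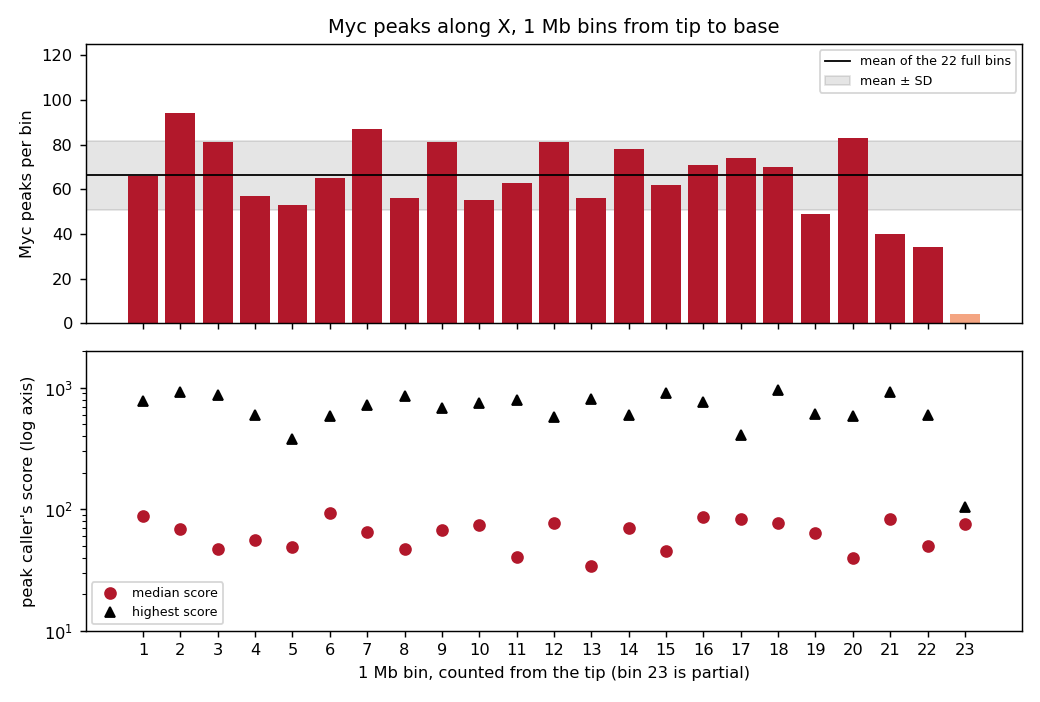
Number of Myc peaks (upper panel) and the median and highest score (lower panel, log axis) in 1 Mb bins of X, counted from the tip. The line and grey band give the mean and SD of the 22 full bins, 66.2 ± 15.5 peaks, and the paler bar is the partial bin at the base. Bins 21 and 22, with 40 and 34 peaks, lie below the band, as does bin 19 with 49.

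At the finer scale of 1 Mb the number of peaks varied from bin to bin. The 22 full bins held 66.2 ± 15.5 peaks (mean ± SD over bins, which are not replicates). The richest was the second from the tip, with 94 peaks, followed by the seventh with 87 and the 20th with 83. The poorest were the last full bins, with 34 and 40 peaks, and then the 19th with 49. The scores had an order of their own. The sixth bin had the highest median score, 93.04, with 65 peaks, and the first had 88.03 with 66. The 13th had the lowest, 33.96, with 56 peaks. The 20th bin was among the richest in peaks and had the second lowest median score of the full bins, 40.09. Every full bin but the fifth and the 17th held at least 1 peak that scored over 500. In those 2 bins the strongest peaks scored 377.07 and 412.41.

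The bins at the base of X can be set beside those of the other arms. The last 2 Mb of X held 54 peaks, which makes 0.39 times the density along the remainder of X. The same window at the centromeric end held 96 peaks on 2L, 36 on 3L and 139 on 3R, or 0.74, 0.27 and 1.07 times the rest of each arm. In the last 1 Mb alone the numbers were 20 on X, 21 on 2L, 8 on 3L and 61 on 3R, or 0.30, 0.32, 0.12 and 0.94 times the rest, so X and 2L were close together there. A row of 23 wide peaks, with starts under 20 kb apart, lies near the base of 2L. It is in the 2 Mb window of 2L and not in its last 1 Mb. Without that row, the 2 Mb window of 2L held 73 peaks, or 0.56 times the rest. The median score in the 2 Mb window was 53.81 on X, below the 65.12 of the whole chromosome. It was 105.50 on 2L, or 78.13 without the row, 93.61 on 3L and 77.39 on 3R, in each case above the median of its own arm. In the last 1 Mb the median score was 47.21 on X, 78.23 on 2L, 95.60 on 3L and 77.39 on 3R. At the other end, the first 2 Mb of X held 160 peaks, against 147 on 2L, 161 on 3L and 127 on 3R. In the first 1 Mb the order was another, with 66 peaks on X, 91 on 2L, 84 on 3L and 58 on 3R.

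Listed peaks began with the first bases of the assembled sequence X. How well reads map at this edge was not examined, and the assembly need not reach the physical end of the chromosome. The first peak began at base 28, scored 24.53 and was 670 bp wide. It opened a run of 11 peaks within 24.0 kb, which scored from 9.86 to 445.29 with a median of 63.85. The strongest of them lay from 13421 to 15283, and 5 of the 11 scored over 100. The next peak followed only after 13.9 kb.

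The strongest Myc peaks of X were spread from the first Mb to beyond 20 Mb. The strongest, from 17400738 to 17402171, scored 963.90 and was 1434 bp wide, so it ranked only 274th of the X peaks in width. It stood after 50.2 kb without a peak, and its neighbour towards the base began 72 bp after its end. The next, from 20127432 to 20128895, scored 930.38 and was 1464 bp wide. It formed the edge of a stretch of 131.8 kb without a listed peak on its side towards the base. Both peaks are narrower than the median of the 12 strongest and border a stretch of over 50 kb without a peak on 1 side.

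Near the tip, 4 of the 12 strongest peaks fell within the first 3 Mb. The peak from 1832959 to 1835510 scored 924.02, that of 2155820 to 2157833 reached 871.29, and that of 2625639 to 2627468 reached 837.59. The one nearest the tip, from 513630 to 516236, scored 781.82. In the middle of the chromosome, the peak from 7860863 to 7864307 scored 852.85 and was the widest of the 12, at 3445 bp. The peak from 10792542 to 10793883 had a score of 802.58. The peak from 12504949 to 12506763 had a score of 805.28. A pair stood close together just before 15 Mb, from 14936828 to 14938895 with a score of 820.85 and from 14968142 to 14971067 with a score of 914.84. The last of the 12, from 15590507 to 15592824, scored 761.07. The 12 had a median width of 2041 bp, from 1342 to 3445 bp.

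The distances between high-scoring peaks of X varied widely. X had 54 peaks with a score over 500, or 3.70% of its peaks, against 4.59% on 2L, 3.21% on 3L and 3.75% on 3R. Of the 53 steps from one such peak to the next on X, 16 were under 100 kb, with a median step of 361.4 kb. No matching count of steps is given for the other arms, so no trait of X can be read from it. The shortest step, 6.65 kb, joined the peaks that began at 2625639 and 2632290, which scored 837.59 and 620.92. The longest, 1.72 Mb, ran from 13.2 to 14.9 Mb. It contains the longest stretch of X without any peak. The 54 peaks were between 975 and 7804 bp wide, so none of them was narrower than the median of all X peaks. Their distance to the nearest peak of any score had a median of 2.40 kb, close to the 2.43 kb of all X peaks.

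**Figure D2:**
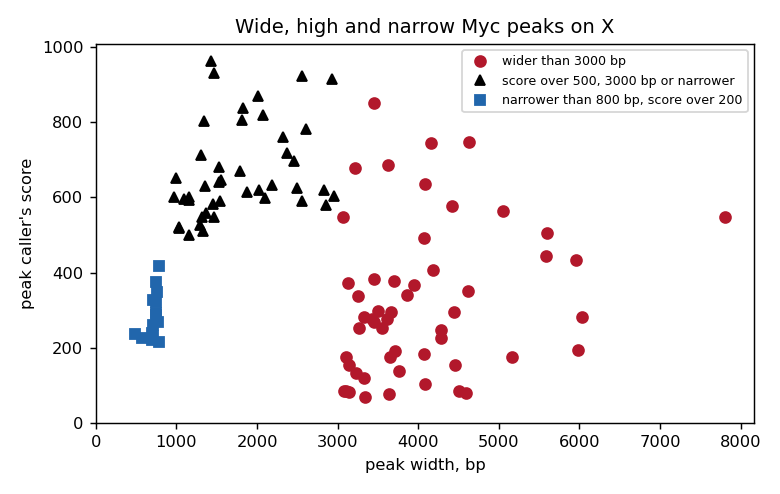
Width in bp and score of the X peaks wider than 3000 bp (53 circles), of the other X peaks that scored over 500 (43 triangles) and of the X peaks narrower than 800 bp that scored over 200 (15 squares). The widest peak, at 7804 bp, scored 549.29, and the highest score, 963.90, belongs to a peak of 1434 bp.

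Wide peaks of X scored anywhere from 68.31 to 852.85. X had 53 peaks wider than 3000 bp, or 2.36 per Mb, against 2.66 on 2L, 0.77 on 3L and 1.72 on 3R. On 2L, 23 of the 61 are the row at its base. The other 38 give 1.65 per Mb. No wide peaks of X were left out for this comparison. The wide peaks of X had a median score of 280.52, and 11 of them scored over 500. The 5 Mb segments of X held 9, 17, 9 and 17 of them from the tip on. The shorter stretch beyond 20 Mb held 1 among its 78 peaks, where wide peaks are 3.63% of all X peaks.

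The widest Myc peak of X, from 19064238 to 19072041, was 7804 bp wide and scored 549.29. The second widest, 6038 bp from 19053923 to 19059960, lay 4.28 kb before it and scored 281.33. Away from this pair, the peak from 7229085 to 7235067 was 5983 bp wide but scored only 193.02. The peak from 8084739 to 8090690 was 5952 bp wide, with a score of 432.35, and the one from 8120591 to 8126175 was 5585 bp wide, with a score of 445.13. With the peak of 5158 bp that began at 8301128, the ninth bin of 1 Mb held 3 of the 10 widest peaks of X and 6 wider than 3000 bp. The remaining 4 of the 10 began at 18665528, 10677221, 9577851 and 20056357. They were 5592, 5052, 4636 and 4622 bp wide and scored 505.55, 563.03, 748.95 and 351.10.

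Some wide peaks of X were weak for their width. Of the 53, 7 scored under 100, from 68.31 to 85.80, with widths from 3077 to 4591 bp. The same held for 2 of 61 wide peaks on 2L, 1 of 19 on 3L and 2 of 48 on 3R. The widest of the 7 lay from 2028305 to 2032895 and scored 80.34. The next, from 9475769 to 9480269, was 4501 bp wide and scored 85.80. The lowest score, 68.31, belonged to the peak from 15751511 to 15754845.

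At the opposite corner stood narrow peaks with high scores. X had 15 peaks under 800 bp that scored over 200, or 1.03% of its peaks, against 0.685% on 2L, 0.707% on 3L and 0.937% on 3R. They were between 490 and 789 bp wide. The highest score among them, 418.79, was that of the peak from 20631190 to 20631978, which lies beyond 20 Mb. The narrowest, 490 bp from 13315070 to 13315559, scored 235.16.

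Width followed score on X as it did elsewhere. Spearman's rho between width and score across peaks was 0.80 on X, 0.83 on 2L, 0.82 on 3L and 0.81 on 3R, a description in which both values come from the same signal and peak caller. Split by 5 classes of score with equal shares of the peaks on these 4 arms, the median width of X peaks was 320, 503, 770, 1069 and 1459.5 bp from the weakest class to the strongest. In the middle class, with scores from 43.26 to 91.30, X held 7 peaks wider than 3000 bp, against 1 on 2L, 1 on 3L and 2 on 3R. The 7 on X are the same weak wide peaks as described above, so this is not a further observation. In that class the width at the 90th percentile was 1624 bp on X, against 1547 bp on 2L, 1295 bp on 3L and 1340 bp on 3R.

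**Figure D3:**
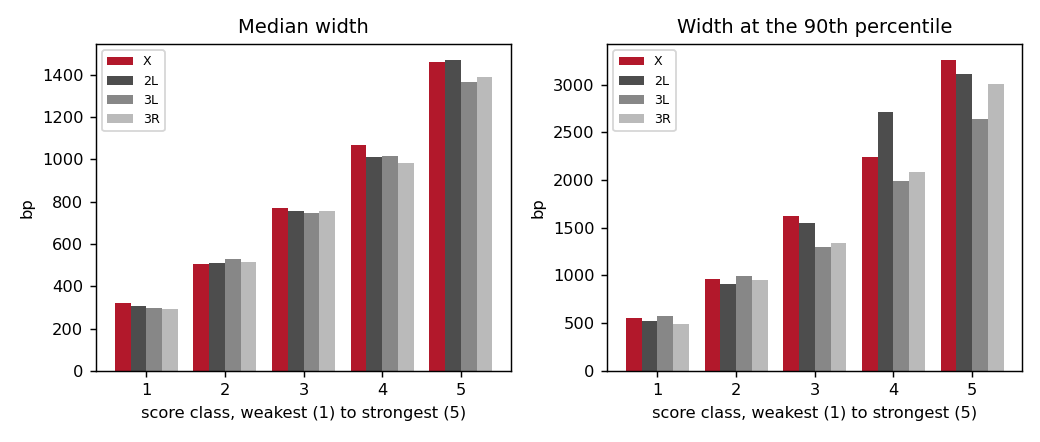
Median width (left) and width at the 90th percentile (right) in bp of the peaks on X, 2L, 3L and 3R in 5 classes of score, weakest to strongest. In the strongest class the median is 1459.5 bp on X and 1472 bp on 2L. In the fourth class 2L has the tallest bar on the right, 2713 bp, and that class holds 29 of its 61 peaks over 3000 bp.

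Many X peaks had a close neighbour. Of the 1459 intervals between neighbouring X peaks, 266 were under 1 kb, or 18.2%, against 15.6% on 2L, 14.5% on 3L and 13.5% on 3R. The median interval was 5371 bp on X, 6094 bp on 2L, 6391 bp on 3L and 6300 bp on 3R. Peaks with a neighbour closer than 1 kb made up 30.4% of the X peaks, against 26.1% on 2L, 24.8% on 3L and 24.0% on 3R. The closest pairs, 192 with less than 500 bp between them, were each sorted into a stronger and a weaker member. A difference between the members therefore follows from the sorting. The median score was 77.86 for the stronger and 13.46 for the weaker member on X. The stronger members had medians of 100.48 on 2L, 97.79 on 3L and 104.33 on 3R. The weaker members had 12.63, 13.67 and 13.89 on these arms. When peaks were required to score at least 61.16, the median of the list, the share of intervals under 1 kb was 5.43% on X, 3.73% on 2L, 2.88% on 3L and 3.61% on 3R.

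Joined end to end, the close peaks built 8 chains of 5 or more on X, against 6 on 2L, 5 on 3L and 3 on 3R. These arms hold 1460, 1460, 1556 and 1815 peaks in all. The longest chain had 11 peaks on X and 11 on 2L, against 7 on 3L and 7 on 3R. The longest chain of X had 11 peaks in 23.1 kb, from 19051474 to 19074582, and peaks filled 86.9% of it. It contains both of the widest peaks of X and ends with a peak of 1034 bp that scored 518.95. The 2 widest are separated by 4 peaks that scored between 10.67 and 33.25. The second most extended chain, 6 peaks over 13.6 kb from 8116013 to 8129562, was filled to 88.2%. There 3 peaks that scored from 9.91 to 16.21 stand between one of 227.58 and one of 445.13. Other chains had no strong member at all. The one from 10632886 to 10636444 had 5 peaks in 3.56 kb, with scores from 8.77 to 30.58, and the one from 4830038 to 4834197 had 5 in 4.16 kb, with scores from 10.86 to 48.75.

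**Figure D4:**
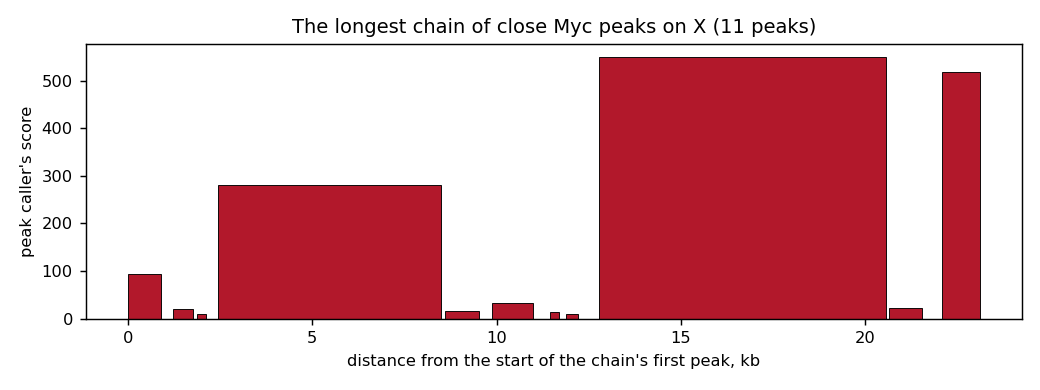
The longest chain of close Myc peaks on X. Each of the 11 bars is a peak, as wide as the peak in kb and as tall as its score, placed by distance from the start of the first peak. The 2 broad bars, 6038 and 7804 bp wide, have peaks of much lower score between them, and the last bar reaches 518.95.

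Peaks of X were unevenly shared among stretches of 100 kb. The full 100 kb windows of X held a median of 6 peaks, as on 2L, 3L and 3R. The 55 of 224 windows with 10 or more peaks held 691 peaks, or 47.3% of those on X. No matching share of peaks is given for the other arms, so no trait of X can be read from it. Windows with 14 or more peaks numbered 16 of 224 on X and 17 of 229 on 2L. There were 12 of 245 on 3L and 15 of 278 on 3R. The most crowded window of X ran from 19.5 to 19.6 Mb with 21 peaks, whose widths add up to 20.5% of its length. They scored from 9.50 to 581.94 with a median of 78.20. On the other arms the most crowded window held 22 peaks on 2L, 20 on 3L and 21 on 3R.

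The 6 most crowded windows of X were not alike in score. The window from 1.5 to 1.6 Mb held 20 peaks with a median score of only 16.26, and 12 of them scored under 20. Among all 1460 X peaks, 307 scored under 20, or 21.0%. The widths of the peaks in that window add up to 10.8% of its length. The window from 2.0 to 2.1 Mb held 18 peaks with a median score of 60.11. The windows from 11.4 to 11.5 Mb and from 19.0 to 19.1 Mb held 17 each, with median scores of 23.20 and 21.92. The second of these contains the longest chain, and the widths of its peaks add up to 24.1% of its length. The window from 17.5 to 17.6 Mb held 16 peaks with a median score of 66.19.

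Long stretches of X held no Myc peak. There were 31 intervals over 100 kb on X, against 28 on 2L, 29 on 3L and 29 on 3R. Among peaks that scored at least 61.16 the numbers were 48 on X, 58 on 2L, 48 on 3L and 52 on 3R. In the whole list, 11 intervals exceeded 150 kb on X, against 5 on 2L, 13 on 3L and 11 on 3R. The place of X among the arms therefore depends on the score and the length required. The 31 on X in the whole list made up 4.58 Mb, or 20.4% of X, against 17.6% of 2L, 18.9% of 3L and 15.1% of 3R. The longest ran for 332.3 kb from 14141852 to 14474156. It is bordered by a peak that scored 65.34 towards the tip and one that scored 322.32 towards the base. The next were 247.9 kb from 21596337 to 21844199, 235.7 kb from 20663394 to 20899081 and 219.3 kb from 7304705 to 7523967. The interval from 4601812 to 4800596 measured 198.8 kb, and the one from 21293191 to 21475899 measured 182.7 kb. Beyond 20 Mb lay 10 of the 31, which add up to 1579 kb. Of the 24 full windows of 100 kb beyond 20 Mb, 7 held no peak, against 14 of 224 on X as a whole. How well reads map in the long stretches without a peak was not examined.

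**Figure D5:**
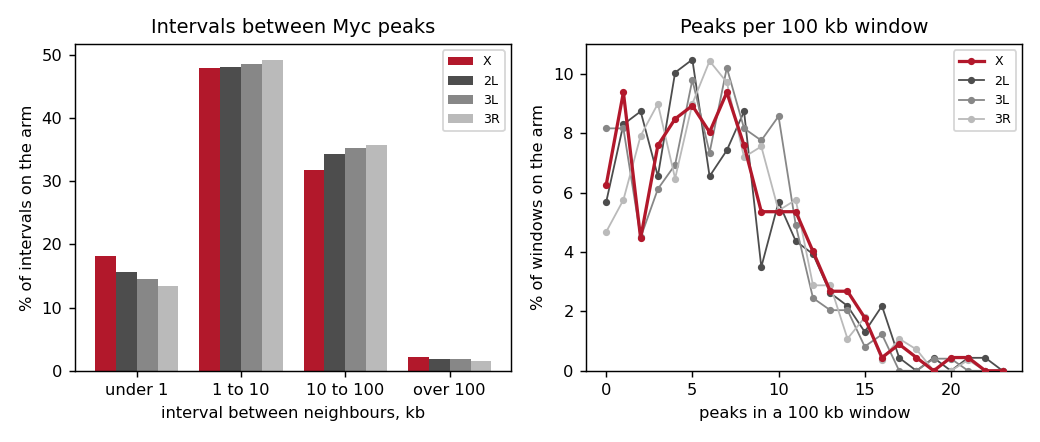
Share of intervals between neighbouring Myc peaks by length (left) and share of 100 kb windows by their number of peaks (right), for X, 2L, 3L and 3R. Intervals under 1 kb are 18.2% on X and from 13.5% to 15.6% on the other arms, and those over 100 kb are 2.12% on X and from 1.60% to 1.92% on the others. The curves on the right overlap over most of their length.

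The peaks that border the long stretches of X without a peak were on the weak side. The 31 stretches are bordered by 60 peaks, since 2 peaks border one on both sides. Their median score was 45.43, against 65.61 for the other X peaks. Of the 60, 44 scored under 100. Most X peaks did so too, since a score of 94.74 ranked only 572nd of 1460. Taken side by side, so that a peak with a long stretch on both sides counts for each, the median was 49.01 on X, against 99.90 on 2L, 76.68 on 3L and 83.49 on 3R. Exceptions existed on X. The second strongest peak, at 20127432, borders a stretch of 131.8 kb, and the peak from 17800763 to 17802224, which scored 548.91, borders one of 110.3 kb.

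Peaks that stood alone were few. On X, 11 peaks had more than 50 kb without a peak on both sides, or 0.753%, against 1.03% on 2L, 1.35% on 3L and 0.496% on 3R. The strongest of them, from 9903658 to 9904983, scored 509.54 and had 76.5 kb free towards the tip and 59.8 kb towards the base. Another, from 18922497 to 18923296, scored 326.51. The weakest, from 13992433 to 13992683, scored 7.90 and was 251 bp wide. The most isolated were the 2 at 22054120 and 22226428 near the base, with scores of 84.16 and 66.34 and more than 110 kb free on both sides. The last peak of X, from 22414924 to 22415566, scored 105.15.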

How the data were processed

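ChIP sequencing, which reads the DNA bound to a precipitated protein, was used to map Myc in 2 ChIP and 2 input libraries. The deposited list gives each peak a start and an end in bp, counted from 1, and the authors' score. The build is FlyBase Release 5, per the file headers. The source column names MACS, and the submitters' processing notes name BDGP5, MACS2, BWA and CASAVA (1.7.0.2, 1.7.0.3) without roles. Not given in the sources used here are the score threshold, the filters and whether libraries were pooled. A genome and annotation of Release 5 were not used here, so peaks have no gene or sequence, and the gene table of Release 6 gave only the chromosome of the Myc gene.

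Peaks were assigned to bins by their midpoint and to an arm by the sequence name, with Python 3.11.15 and pandas 2.3.3. Arm lengths are taken as the end of the last peak. X, 2L and 3L count from the tip, 3R from its centromeric end. The chromosome, its peaks and the alternatives were chosen with earlier results of these data known. Named peaks are the 12 strongest, the 10 widest, the borders of the 6 longest intervals and the 6 fullest 100 kb windows. Other named peaks (the tip, chains, isolated, narrow, weak wide ones and borders of stretches) were chosen after their values were seen. The routines were tested on simulated data. No test was run, since no value belongs to a library.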

Additional observations from a re-analysis of the deposited data

How the results depend on the processing

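The comparisons were recomputed with the stronger part of the list (scores at or above its median), with peaks within 100 bp merged, and without 1 Mb at each arm end. Leaving out a row of wide peaks on 2L, adding 2R to the autosome arms, and merging for the wide peaks were chosen after seeing the data. X had 1460 peaks, and 756 at or above the median score. The ratio of X to autosome arm density was 1.02, and 0.997 with 2R added. The ratio of covered shares was 1.07, and 1.09 in the stronger part, without the arm ends and without the row on 2L. The median width on X exceeded that of the autosome arms by 31.0 bp, by 31.5 bp in the stronger part and by 29.0 bp after merging, and the median score by 3.20, or 2.71 without the arm ends. Intervals under 1 kb made up 18.2%, but 5.43% in the stronger part and 15.6% after merging. Both follow from construction, since weak or close peaks leave the list. Intervals over 100 kb numbered 31, and 48 in the stronger part, while 11 exceeded 150 kb. The density ratio of peaks over 3 kb was 1.39, and 1.698 without the row on 2L and 1.45 after merging. The density at the base of X was 0.39 times the rest, 0.36 times in the stronger part and 0.30 times with 1 Mb in place of 2. The density ratio of X to the autosome arms ran from 1.01 after merging to 1.05 in the stronger part, apart from the value with 2R. Merging gave 1415 peaks on X, and the most crowded window held 19 peaks when windows were shifted by 50 kb and 21 after merging. All alternatives use parts of the same list, so none is an independent check. No paired analysis was possible because the list has no column for a library, and no replicate could be left out. The unknown depth limits what can be said of weaker regions.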

Other observations

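Near the base of X, 5 peaks stood at nearly even steps, a row singled out after its values were seen. Their starts, from 21475900 to 21501141, lay 6015 to 6602 bp apart, with a mean step of 6310 ± 278 bp (SD over 4 steps). Among 1172 runs of 5 neighbouring X peaks with a mean step between 3 and 30 kb, this row had the most even steps, with a coefficient of variation of 4.41%, against 6.35% for the next. The first 4 scored 45.21, 43.05, 42.19 and 43.91, and the fifth scored 94.74. They were between 428 and 1362 bp wide. The row is flanked by 182.7 kb without a peak towards the tip and 93.3 kb towards the base.

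The scaffold XHet, which collects heterochromatin of X apart from the assembled chromosome, held 3 peaks. They began at 60762, 75123 and 84395, with scores of 79.83, 74.01 and 59.94 and widths of 920, 1403 and 684 bp.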
